A study of Mus musculus with 3 samples.

Results

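The 10 genes described here, of 32285 features counted, set or regulate the identity of T cells: Tcf7, Lef1, Satb1, Bcl11b, Themis, Il7r, Il2ra, Foxp3, Ikzf2 and Icos. They were chosen by name, with earlier results of these data known. They were measured by scRNA-seq in peripheral blood (PB) leukocytes of WT Balb/C mice, in 3 libraries with 1 library per condition. The naive library came from mice without leukemia, and the D11 and D14 libraries came from mice taken 11 and 14 days after engraftment with BBC2 cells. BBC2 is a single GFP-marked line of stem cell leukemia/lymphoma syndrome (SCLL) made by BCR-FGFR1 transduction, with a pro-B phenotype. Blood was cleared of red cells and of dead cells before loading, and how many mice went into a library is not given in the sources used here.

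In T cells that have not met antigen, the HMG-box factors Tcf7 (TCF-1) and Lef1 and the chromatin organizer Satb1 keep the resting and lymph node homing programme in place, and they are known to decline as cells pass to effector states. Bcl11b keeps cells committed to the T lineage, and the interleukin 7 receptor chain Il7r carries their survival signal. Regulatory T cells (Treg) are a suppressive lineage set by Foxp3, and commonly carry Ikzf2 (Helios), the high-affinity interleukin 2 receptor chain Il2ra (CD25) and the co-stimulatory receptor Icos.

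Each value is a count of UMIs, the barcoded RNA molecules of a gene in a cell. A level is the sum of a gene's UMIs in the cells of 1 class of a library, scaled to all UMIs of those cells on the per-million scale (CPM). With 1 library per condition there was no replicate and no test, and every interval printed is a 95% interval for counting error alone. Differences between cells and between mice are not in it. A gene was called changed where it differed at least 2-fold and the interval of the log2 ratio lay on 1 side of 0. A change in how many cells of each kind were in the blood and a change in RNA per cell both move such a sum.

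Barcodes showing 200 or more genes, with mitochondrial UMIs no more than 10%, were read as cells. They numbered 3811 (naive), 4567 (D11) and 4414 (D14), with medians of 6031, 6389 and 6781 UMIs. Hemoglobin genes took 2.42%, 37.4% and 11.8% of their UMIs. Between 12 and 18 barcodes were shared by each pair of libraries, and none of these was taken as a T cell in both.

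T cells were first taken as cells with at least 2 UMIs of Cd3d, Cd3e and Cd3g together and at most 1 UMI of F13a1 and Fn1 together. This Cd3 gate took 1397 naive, 589 D11 and 349 D14 cells, which were 36.7% (interval 35.1 to 38.2), 12.9% (11.9 to 13.9) and 7.91% (7.13 to 8.74) of the kept cells. The chains of the gate did not go together in all of them. Of the gated cells, 133 (9.52%), 299 (50.8%) and 234 (67.0%) also met the gate for neutrophils, which asked for at least 3 UMIs of Cxcr2, Mmp9, Mmp8 and Retnlg and at least 20 UMIs of S100a8 and S100a9. A Cd3d UMI was found in 98.5%, 99.3% and 100% of the cells that met both gates, but a Cd3e or Cd3g UMI in only 27.8%, 7.02% and 3.42% of them. These are genes of the Cd3 gate, so a gated cell without Cd3e and Cd3g had to hold Cd3d. Trac, the constant segment of the T cell receptor alpha chain and not part of the gate, was found in 15.8%, 1.67% and 1.71%. In all cells of the neutrophil gate, whether or not they met the Cd3 gate, Cd3d was found in 25.6%, 36.7% and 38.6%. Cd3e was found in 2.54%, 0.481% and 0.345% of them.

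Cells of the Cd3 gate that met no other gate numbered 1252, 277 and 113, or 32.9%, 6.07% and 2.56% of the kept cells, and these are called T cells below. The NK, mature B and leukemic pro-B gates allowed at most 1 Cd3 UMI, and the classical monocyte gate asked for at least 2 UMIs of F13a1 and Fn1. A Cd3-gated cell could meet none of these gates, so this step did not screen for mixes with those classes. Only cells of the neutrophil, non-classical monocyte, red cell and platelet gates could be left out. The kept cells also held red cells, and their make-up differed between libraries. Cells of the red cell gate alone were 1.47%, 27.2% and 23.4% of them, and those of the leukemic pro-B gate alone 0.0525%, 2.19% and 15.6%. In the T cells a Cd3e or Cd3g UMI was present in 99.6%, 98.2% and 99.1%, and a Trac UMI in 88.1%, 74.0% and 76.1%. Cd3e and Cd3g are genes of the gate, and Trac is not. The summed level of 10 neutrophil markers was 80.4, 364 and 404 CPM in the T cells, against 7590, 92867 and 157475 CPM in all Cd3-gated cells. Cells of the neutrophil gate had been left out of the T cells, so the lower sum follows in part from how they were taken. Leaving out cells of other gates was planned as an alternative to the Cd3 gate, and it was put beside it throughout once the overlap was seen. Red cell markers still stood at 3242, 29060 and 19640 CPM (10 of 10 detected) in the T cells of the 3 libraries, and 10 B cell markers at 257, 454 and 595 CPM (10 of 10). The 10 pro-B markers stood at 36.1, 14.9 and 240 CPM, with 4, 4 and 7 of them detected, and 3 of the D14 T cells held at least 3 pro-B UMIs. The 10 NK markers were at 297, 474 and 200 CPM, with Ncr1 at 0 at D14. The part of these RNAs in the results below was not tested.

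**Figure D1:**
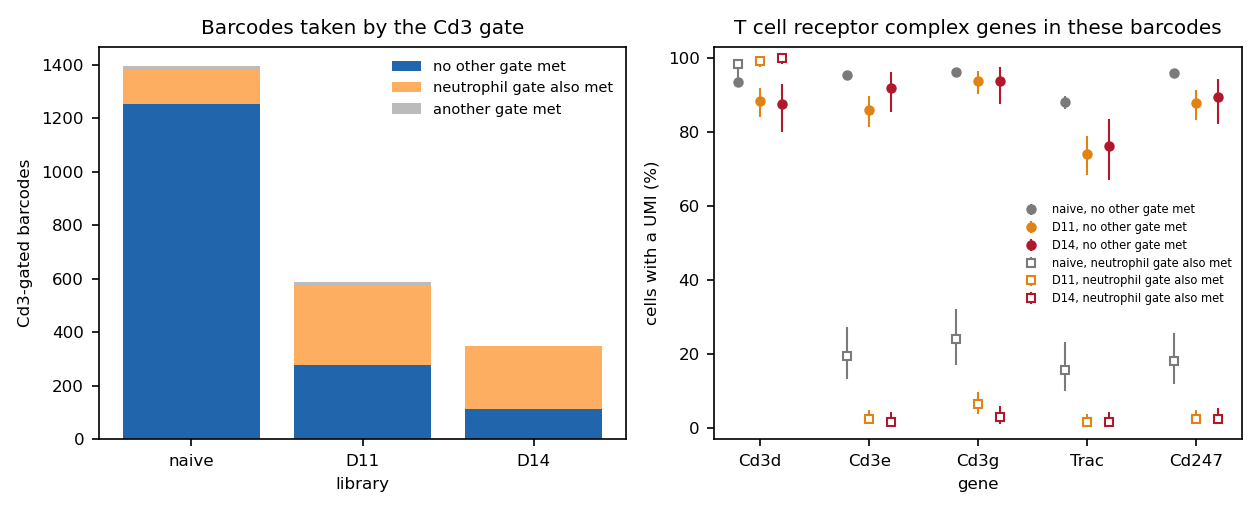
The left plot gives the number of Cd3-gated cells in each library (bars, by which other gate they also met), and the right plot gives the percent of cells with a UMI of 5 T cell receptor complex genes (filled points, no other gate met; open squares, neutrophil gate also met; bars, 95% Clopper-Pearson intervals). The share of the bar that met the neutrophil gate was 9.52% in the naive and 67.0% in the D14 library, and Trac, found in 88.1%, 74.0% and 76.1% of the T cells, was found in 15.8%, 1.67% and 1.71% of the cells that met both gates. Cd3d, Cd3e and Cd3g are the genes of the gate itself.

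The split changed the account of the members. In all Cd3-gated cells, 5 of the 10 members were changed at least 2-fold at D11 and 6 at D14, each of them lower than naive. Of the 7940 genes averaging 10 CPM or more over the 3 sums, 22.9% were changed in either direction and 9.91% were lower at D11, and 36.0% and 21.6% at D14. In the T cells, 0 of the 10 were at least 2-fold lower at either time, while Foxp3, Ikzf2 and Icos were at least 2-fold higher at D11 and these 3 and Il2ra at D14. With TMM scaling, Satb1 at D11 and Lef1 at D14 were each past 2-fold lower, at -1.06, and Foxp3 at D14 was below 2-fold higher, at 0.94. Satb1 at D11 was also just past 2-fold lower on CPM over totals that omit ribosomal, mitochondrial and hemoglobin transcripts, and Il2ra at D14 was at 0.77 as the mean of the CPM of each cell. Among 8090 genes the shares were 1.06% lower and 4.82% higher at D11, and 2.14% lower and 6.50% higher at D14. The members had been chosen with earlier results of these data known, so their counts were not tested against these shares. The median log2 ratio of the members was -0.99 and -1.29 in all Cd3-gated cells and -0.10 and 0.14 in the T cells. All 10 members passed the 10 CPM minimum. In all Cd3-gated cells of the naive, D11 and D14 libraries, Tcf7 read 596, 184 and 128 CPM, Lef1 1673, 502 and 338 CPM, and Satb1 1712, 556 and 497 CPM. Bcl11b read 734, 312 and 253 CPM and Themis 1249, 483 and 359 CPM, while Ikzf2 read 338, 458 and 435 CPM, Il2ra 26.4, 26.6 and 23.4 CPM and Icos 51.1, 77.3 and 62.7 CPM. Each of these was lower at D11 and D14 than in the T cells alone.

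**Figure D2:**
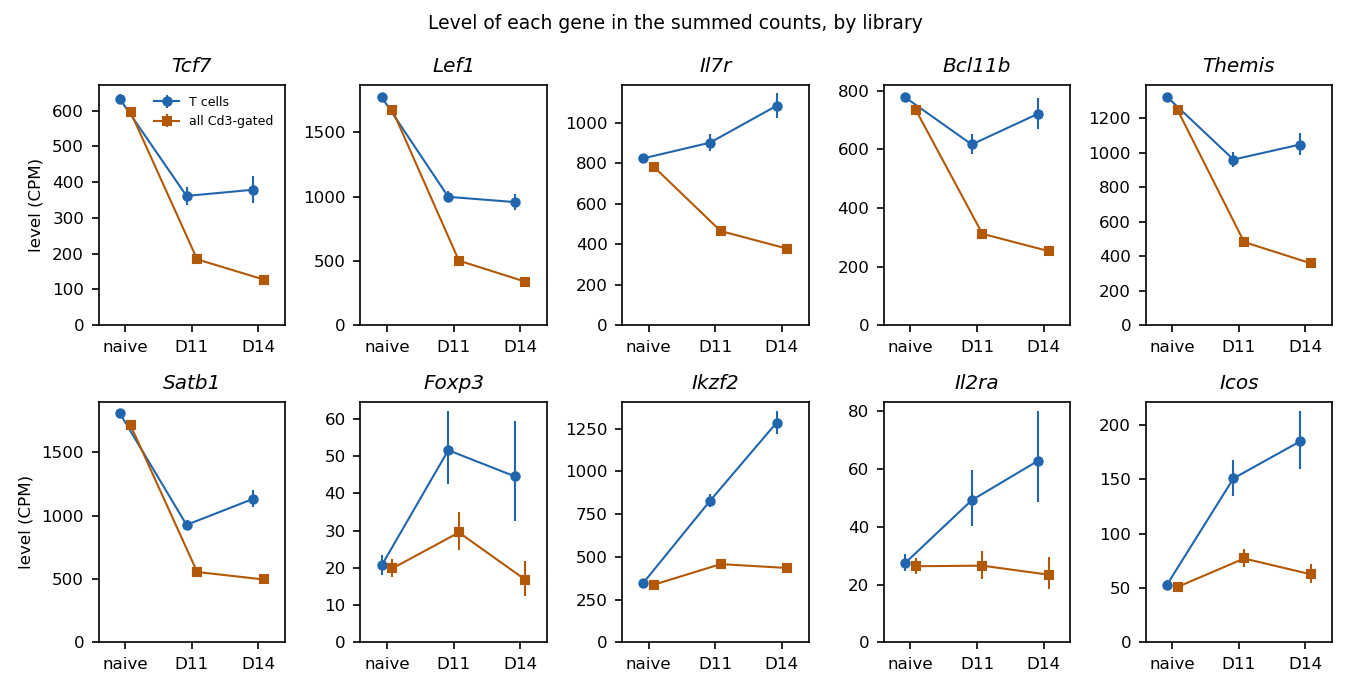
Level of each of the 10 genes in CPM of the summed counts (y axis) in the naive, D11 and D14 libraries (x axis), in T cells that met no other gate (blue circles) and in all Cd3-gated cells (brown squares), with exact Poisson 95% intervals; the lines join libraries and are not a fit. Il7r at D14 lay above its naive level in the T cells (1084 against 824 CPM) and lower in all Cd3-gated cells (378 against 781 CPM).

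Tcf7, on mouse chromosome 11 (GRCm38, chr11:52252371-52283014, minus strand), encodes TCF-1, the factor that sets the T cell programme in the thymus and holds resting and memory cells. Its level in the T cells was 632 CPM in the naive, 362 CPM in the D11 and 379 CPM in the D14 library, from 7519, 778 and 391 UMIs. The naive level stood apart from both leukemic libraries, whose intervals overlapped. The log2 ratio to naive was -0.81 (interval -0.92 to -0.70) at D11 and -0.74 (-0.89 to -0.59) at D14. A Tcf7 UMI was found in 93.2%, 71.8% and 74.3% of the T cells, and a cell with one held 6.44, 3.91 and 4.65 of them on average.

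Lef1 (chr3:131110471-131224356, plus strand), the partner of TCF-1 with the same DNA-binding box, was likewise higher in the naive library than in both leukemic libraries. Its level was 1774, 998 and 957 CPM. The log2 ratio was -0.83 (-0.89 to -0.77) at the first time and -0.89 (-0.98 to -0.80) at the second. A Lef1 UMI was found in 97.8%, 81.6% and 80.5% of the T cells. Both genes together were seen in 91.9% of the naive T cells and in 59.6% and 61.9% of the D11 and D14 T cells, and neither of them in 0.879%, 6.14% and 7.08%.

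Satb1 (chr17:51736187-51833290, minus strand), which organizes chromatin loops in thymocytes and resting T cells, stood at 1807, 928 and 1133 CPM. Its D11 level was the lowest of the 3, and the D14 level lay above it with a log2 ratio of 0.29 (0.18 to 0.39). Against naive the log2 ratios were -0.96 (-1.03 to -0.90) and -0.67 (-0.76 to -0.59), so the D11 interval touched a 2-fold change. The share of T cells with a Satb1 UMI was 94.6%, 71.1% and 73.5%.

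Bcl11b (chr12:107910403-108003602, minus strand), the zinc finger factor that closes off other lineages, differed less. The level was 777, 617 and 722 CPM, or on the log2 scale -0.33 (-0.42 to -0.25) against naive at D11 and -0.11 (-0.22 to 0.00094), which spans 0, at D14. It was detected in 96.0%, 90.6% and 98.2% of the T cells.

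Cells differed in depth, with medians of 9185.5, 7210 and 7701 UMIs in the T cells, so the shares were also computed with every cell thinned to 1000 UMIs. The expected share with a UMI was then 45.7%, 30.0% and 32.8% for Tcf7, 75.8%, 49.9% and 47.0% for Lef1, and 74.4%, 46.0% and 47.5% for Satb1. The naive share stayed the highest for these 3 genes. Bcl11b came to 52.7%, 46.6% and 52.0%.

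TCF-1 and LEF-1 bind a shared core. The promoters of the members were searched on both strands for 1 form of it, CTTTGA, which reads TCAAAG on the other strand. Other forms of the core were not searched for, so the counts below are of these letters only. RefSeq start sites of GRCm38.p6, from 250 bases before to 50 after each start, were at hand for 8 members in 18 windows. The form searched for was in 2 of the 18 windows, 1 of the 4 of Lef1 and the single window of Bcl11b, and in 16.0% of 32851 mouse promoter windows of the same length. These 2 are printed because they hold this form of the core bound by the proteins of 2 of the members, with the core in capitals. The Lef1 window, chr3:131156044-131156343 on the plus strand, lies at a start site inside the gene, and the Bcl11b window is chr12:108003365-108003664 on the minus strand.
Lef1: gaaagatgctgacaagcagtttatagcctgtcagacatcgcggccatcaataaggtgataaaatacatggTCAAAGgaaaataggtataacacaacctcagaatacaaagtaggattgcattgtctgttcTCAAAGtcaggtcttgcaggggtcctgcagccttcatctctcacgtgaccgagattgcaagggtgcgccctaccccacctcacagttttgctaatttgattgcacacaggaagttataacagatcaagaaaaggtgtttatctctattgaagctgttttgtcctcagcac
Bcl11b: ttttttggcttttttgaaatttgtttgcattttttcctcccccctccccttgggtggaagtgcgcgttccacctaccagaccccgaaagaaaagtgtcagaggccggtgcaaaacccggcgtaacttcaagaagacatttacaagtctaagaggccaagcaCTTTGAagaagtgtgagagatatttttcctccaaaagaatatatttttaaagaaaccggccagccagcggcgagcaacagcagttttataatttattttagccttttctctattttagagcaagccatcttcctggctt
The Lef1 window holds the core 2 times and the Bcl11b window 1 time. A second core, TGTTTA, the forkhead motif that factors of the Foxp3 family bind (TAAACA on the other strand), was in 3 of the 18 windows and in 13.4% of all. These are matches of letters and were not compared with binding.

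Themis (chr10:28668360-28883818, plus strand), an adaptor that tunes signals of the T cell receptor, was measured at 1326, 961 and 1048 CPM in the T cells. Both leukemic libraries were below naive, by log2 ratios of -0.46 (-0.53 to -0.40) and -0.34 (-0.43 to -0.25). A UMI was found in 92.6%, 72.9% and 77.9% of the cells, and 1 cell held 9.15% of the D14 UMIs. Among T cells with a Cd8a or Cd8b1 UMI and no Cd4 UMI (213, 51 and 36 cells) Themis was at 1876, 1692 and 1812 CPM, and the D14 ratio to naive spanned 0. In Cd4 cells without a Cd8 UMI it was at 1209, 964 and 814 CPM, with a D14 log2 ratio of -0.57 (-0.72 to -0.42), and in T cells with both or neither it was at 1172, 603 and 586 CPM.

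Il7r (chr15:9505788-9530176, minus strand) went the other way from the resting factors in the T cells, at 824, 902 and 1084 CPM. The log2 ratios to naive were 0.13 (0.06 to 0.20) and 0.40 (0.30 to 0.48), both under 2-fold. In all Cd3-gated cells the same gene read 781, 465 and 378 CPM, or -0.75 and -1.05, so its sign depended on whether cells of other gates were left out. The share of T cells with an Il7r UMI was 87.9%, 81.9% and 88.5%.

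Il2ra (chr2:11642807-11693193, plus strand) was sparse, with 327, 106 and 65 UMIs in the T cells. Its level was 27.5, 49.3 and 63.0 CPM, and the leukemic libraries did not differ from each other beyond counting error. The log2 ratios to naive were 0.84 (0.51 to 1.16) and 1.20 (0.79 to 1.58). At D14 a single cell held 27.7% of the Il2ra UMIs. A UMI was found in 6.95%, 15.9% and 15.9% of the cells, and in 2.09%, 4.19% and 3.90% after thinning.

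Foxp3 (chrX:7573644-7595245, plus strand, with Flicr on the same strand) had a UMI in 97 of the 1252 naive T cells, 45 of the 277 at D11 and 18 of the 113 at D14. These shares were 7.75% (interval 6.33 to 9.37), 16.2% (12.1 to 21.1) and 15.9% (9.72 to 24.0), and 1.78%, 4.24% and 3.81% after thinning. The level was 20.7, 51.6 and 44.6 CPM from 246, 111 and 46 UMIs, which gave log2 ratios of 1.32 (0.98 to 1.65) and 1.11 (0.62 to 1.57). In neutrophils, not known to express the gene, 0 of 944, 0 of 1148 and 0 of 760 cells held a Foxp3 UMI at medians of 3432, 3154 and 3872 UMIs, which allows shares of cells with a UMI of up to 0.318%, 0.261% and 0.395% and sets no limit on how many express it. Cells of the Cd3 gate had been left out of these neutrophils. In all Cd3-gated cells, many of which met the neutrophil gate, Foxp3 read 19.9, 29.5 and 16.8 CPM. A Foxp3 UMI was found in 101, 50 and 20 of those cells. The D14 log2 ratio there was -0.24, and 0.06 with TMM scaling.

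Ikzf2 (chr1:69531214-69687245, minus strand), a zinc finger factor of the Ikaros family whose span holds 2 other genes of the same strand, was at 349, 828 and 1285 CPM in the T cells. The 3 levels stood apart from each other, and the log2 ratios to naive were 1.25 (1.17 to 1.33) and 1.88 (1.79 to 1.97). A UMI was found in 20.9%, 36.8% and 34.5% of the cells, so the share was alike in the leukemic libraries while the UMIs per positive cell were 15.8, 17.5 and 34.0. One D14 cell held 12.6% of the Ikzf2 UMIs of that library. Counting intervals take no account of such unevenness between cells.

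Icos (chr1:60977927-61000320, plus strand), a receptor of the CD28 family, was at 53.0, 151 and 185 CPM. Both leukemic libraries lay above naive, with log2 ratios of 1.51 (1.31 to 1.71) and 1.80 (1.56 to 2.04). The share of T cells with an Icos UMI was 21.9%, 42.2% and 41.6%, and 4.37%, 11.9% and 14.1% after thinning.

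**Figure D3:**
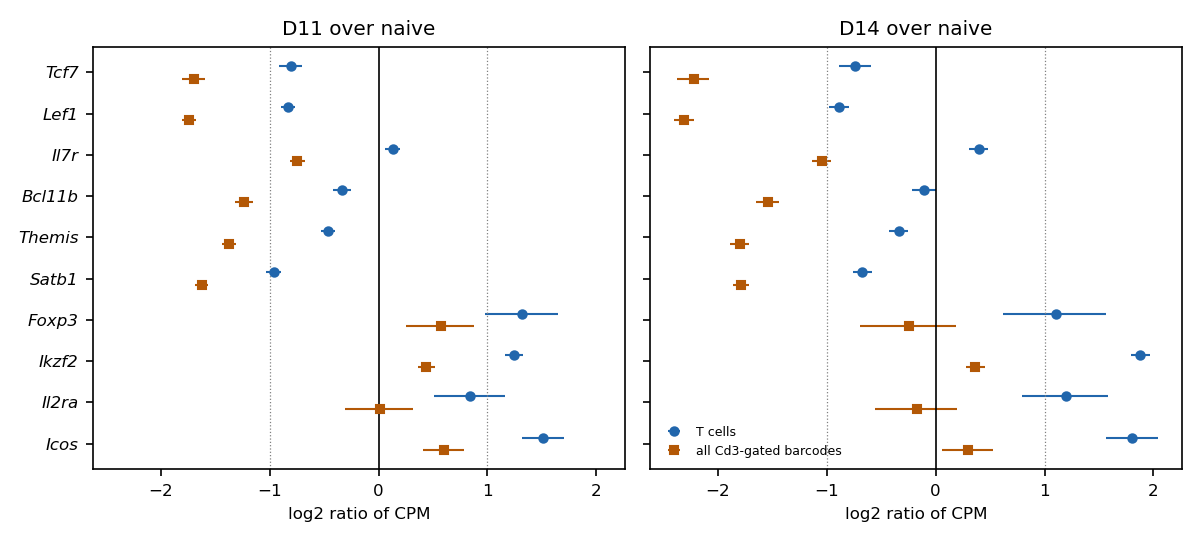
Log2 ratio of CPM to the naive library (x axis) for each of the 10 genes (y axis) at D11 and at D14, in T cells that met no other gate (blue circles) and in all Cd3-gated cells (brown squares), with 95% intervals for counting error. In the T cells Foxp3, Ikzf2, Il2ra and Icos lay at 1.11, 1.88, 1.20 and 1.80 at D14, and Tcf7, Lef1 and Satb1 at -0.74, -0.89 and -0.67.

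The 4 members tied to Treg were then followed in the cells that carry Foxp3. Of these cells 84.5%, 95.6% and 94.4% also held an Ikzf2 UMI (82 of 97, 43 of 45 and 17 of 18). Ikzf2 was at 2373, 3083 and 5540 CPM in cells with a Foxp3 UMI and at 154, 319 and 341 CPM in cells without one, so it was 15.4-fold, 9.67-fold and 16.2-fold higher with Foxp3. The cells with Foxp3 held 59.7%, 68.6% and 78.3% of all Ikzf2 UMIs in the T cells. Those cells held 8.79%, 18.4% and 18.2% of all UMIs.

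Il2ra was at 241, 184 and 294 CPM with a Foxp3 UMI and at 6.91, 18.8 and 11.8 CPM without. The Foxp3 cells held 77.1%, 68.9% and 84.6% of its UMIs. Icos was less concentrated, at 170, 346 and 544 CPM with a Foxp3 UMI and 41.7, 107 and 105 CPM without. Both groups of cells were higher for Icos in the leukemic libraries than in the naive library.

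The resting factors were lower in cells with Foxp3. Tcf7 was at 249, 48.0 and 32.0 CPM with a Foxp3 UMI, from 260, 19 and 6 UMIs, and at 669, 432 and 456 CPM without. The log2 ratio of cells with to cells without Foxp3 was -1.43 (-1.61 to -1.25) in the naive, -3.17 (-3.91 to -2.52) in the D11 and -3.83 (-5.29 to -2.70) in the D14 library, and the naive interval did not overlap the others. Lef1 differed by -1.20, -1.10 and -0.93 and Satb1 by -1.23, -1.53 and -1.71 on the log2 scale. Themis was the lowest against the other cells after Tcf7 in the D11 and D14 libraries, at -1.69 and -2.16, and stood at -1.76 in the naive. Bcl11b differed by -0.45 in the naive library, and its D11 and D14 ratios spanned 0, at -0.02 and 0.07. A cell counted as without Foxp3 may carry it below detection, and the cells with a UMI were deeper, with medians of 9468, 7955 and 10080 UMIs against 9165, 6954 and 7383.

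In T cells with a Cd4 UMI and no Cd8a or Cd8b1 UMI (715, 127 and 47 cells), Ikzf2 was at 331, 931 and 2278 CPM and Icos at 58.0, 160 and 294 CPM. Without the Foxp3 cells (652, 104 and 34 cells) Ikzf2 still read 89.0, 480 and 607 CPM and Icos 41.4, 144 and 136 CPM. The D14 value of Ikzf2 there came from 6 cells with a UMI, 1 of which held 38.0% of the UMIs. Among the cells with a Cd8a or Cd8b1 UMI and no Cd4 UMI, Ikzf2 was at 164, 310 and 158 CPM and Icos at 37.5, 131 and 79.2 CPM. Foxp3 was found there in 4 of 213, 5 of 51 and 0 of 36 cells, from 6, 14 and 0 UMIs, at 2.68, 35.9 and 0 CPM. The D11 log2 ratio was 3.74 (2.27 to 5.41), with 35.7% of the D11 UMIs in 1 cell, and the 0 at D14 allows a share of cells with a UMI of up to 8.33%. Tcf7 was lower than naive in both subsets, with log2 ratios of -0.73 and -0.91 in Cd4 cells and -0.50 and -0.30 in Cd8 cells. In T cells with both or neither (324, 99 and 30 cells) the Tcf7 ratios were -1.05 and -0.86. Lef1 was there at -1.10 and -0.99 and Satb1 at -1.33 and -0.63. The D11 values of these genes were called lower in that subset, and the D14 values were not. Il2ra there was at -0.13 at both times, and both intervals spanned 0. Foxp3 was at 0.76 and 0.65, with the D14 interval spanning 0, and Ikzf2 at 0.82 and 0.63, none of them called. Icos was called at both times, at 1.49 and 1.13. In the Cd4 cells the Il2ra ratios were 1.44 and 2.31, both called, and in the Cd8 cells Il2ra read 1.79, 10.3 and 0 CPM.

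S100a4, 1 of the 2 memory and effector genes with the largest rise at D14 in the T cells, was used after its values were seen to split the T cells by state. It encodes a calcium-binding protein that is known to mark memory and effector T cells. An S100a4 UMI was found in 132 naive (10.5%), 126 D11 (45.5%) and 60 D14 (53.1%) T cells, and in 5.60%, 32.8% and 31.6% after thinning. The level was 152, 951 and 689 CPM. Neutrophils also hold S100a4, and the neutrophil marker sums in the T cells are given above. The cells with S100a4 were deeper, with medians of 10438.5, 7848 and 9188.5 UMIs against 9072, 6235 and 7285.

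Within the cells without S100a4 (1120, 151 and 53) the ratios of the resting factors lay nearer to 0 than in all T cells. This follows in part from the choice of S100a4, which was taken for its rise in these data. In the naive library the log2 ratio of cells with to cells without it was already -0.93 for Tcf7, -1.75 for Lef1 and -1.93 for Satb1. Lef1 was at 1946, 1714 and 1678 CPM. Its log2 ratios to naive were -0.18 (-0.25 to -0.11) and -0.21 (-0.32 to -0.11). Satb1 was at 1992, 1647 and 2248 CPM, or -0.27 and 0.17, so its D14 level was above naive. Tcf7 was at 673, 515 and 541 CPM, or -0.38 (-0.51 to -0.26) and -0.31 (-0.51 to -0.13). The ratios of Ikzf2 were 0.25 and 0.51 and those of Icos 0.15 and 0.73, against 1.25 and 1.88 and 1.51 and 1.80 in all T cells.

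Within the cells with S100a4, Lef1 was at 579, 338 and 418 CPM and Satb1 at 524, 264 and 298 CPM, each below the cells without S100a4 of the same library. The log2 ratios to naive in these cells were -0.78 and -0.47 for Lef1 and -0.99 and -0.81 for Satb1. Those of Tcf7 were -0.68 and -0.46, and each of these intervals lay below 0. Ikzf2 was at 1624, 1411 and 2070 CPM, Icos at 203, 258 and 285 CPM and Foxp3 at 101, 81.3 and 76.2 CPM. The Foxp3 ratios to naive in these cells spanned 0 at both times. In the cells without S100a4, Foxp3 was at 9.14, 19.4 and 2.26 CPM from 95, 20 and 1 UMIs, the D11 log2 ratio was 1.08 (0.31 to 1.79), with 40.0% of the D11 UMIs in 1 cell, and the D14 interval spanned 0. Il7r in the cells with S100a4 was at 622, 908 and 1133 CPM, with log2 ratios to naive of 0.55 and 0.87. The cells with S100a4 held 12.6%, 52.0% and 57.2% of the T cell UMIs, and for Ikzf2 58.7%, 88.7% and 92.2%.

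**Figure D4:**
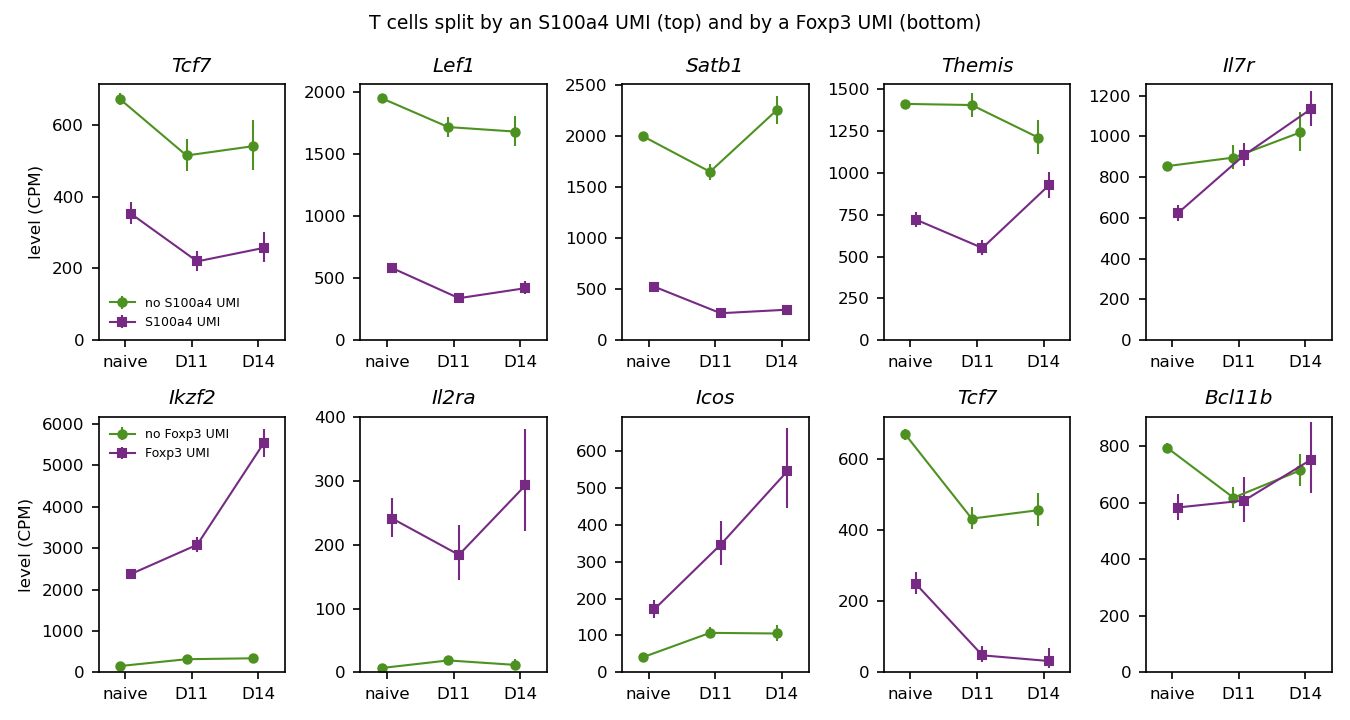
Level in CPM (y axis) by library (x axis) in T cells split by an S100a4 UMI (top 5 plots) and by a Foxp3 UMI (bottom 5 plots), with exact Poisson 95% intervals; green circles are cells without and purple squares cells with a UMI of the splitting gene. Lef1 without S100a4 lay between 1678 and 1946 CPM and with S100a4 between 338 and 579 CPM, and Ikzf2 with Foxp3 lay between 2373 and 5540 CPM.

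Other genes of the T cell programme were read from lists written with results of these data known. Of all 8090 genes in the T cells, 1.06% were lower and 4.82% higher at D11, and 2.14% and 6.50% at D14. A gene was tested where it averaged 10 CPM or more over the 3 sums, 2 of them leukemic. Genes low in the naive library could thus pass only through sums where they were high. The counts of this and the other lists below were not tested against these shares. Of 10 genes of resting and homing cells, 3 were at least 2-fold lower at D11 and 4 at D14, with median log2 ratios of -0.82 and -0.86 beside 0.04 and 0.08 over all 8090 genes. Dapl1 was at 129, 47.4 and 42.6 CPM and Igfbp4, an insulin-like growth factor binding protein, at 246, 79.5 and 52.3 CPM. The other end of that list held Klf3 at 384, 385 and 354 CPM and Npm1 at 709, 613 and 610 CPM. Of 15 memory and effector genes tested, 13 were at least 2-fold higher at D11 and 12 at D14. The granzyme Gzmk was at 1.60, 13.5 and 19.4 CPM, so it passed the minimum only through the leukemic sums. Nkg7 at 104, 193 and 147 CPM and Il2rb at 62.4, 118 and 105 CPM were under 2-fold.

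Of the 12 tested genes of a Treg list without the members, 8 were at least 2-fold higher at D11 and 6 at D14. Tigit, an inhibitory receptor, was at 5.55, 12.1 and 21.3 CPM and Tnfrsf9 (4-1BB) at 2.69, 8.83 and 24.2 CPM. Both were below the 10 CPM minimum in the naive library. Ikzf4, the paralog of Ikzf2 also found in Treg, was at 12.9, 16.3 and 14.5 CPM and the folate receptor family gene Izumo1r at 38.3, 44.6 and 52.3 CPM, neither called. Of the 19 tested T lineage transcription factors, 4 were at least 2-fold higher at each time and 0 lower. Prdm1 (Blimp-1) was at 8.58, 19.5 and 36.8 CPM and Tbx21 (T-bet) at 10.2, 30.2 and 44.6 CPM. Klf2, which holds cells in circulation, was at 730, 670 and 405 CPM and Foxp1, a quiescence factor, at 2554, 1757 and 1685 CPM.

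Genes of the T cell receptor complex and its proximal signalling were counted next. Of 20, 0 were at least 2-fold changed in either direction at D11 or D14 in the T cells, with medians of -0.14 and -0.26. In all Cd3-gated cells 13 and 19 were at least 2-fold lower, beside 9.91% and 21.6% of all genes. Of those gated cells, 50.8% and 67.0% also met the neutrophil gate. Cd3d, Cd3e and Cd3g of this complex are the genes of the gate, so the counts follow in part from how the cells were taken. In the T cells, Cd28 was at 419, 358 and 230 CPM and Trbc1 at 513, 488 and 319 CPM. Grap2 was at 924, 848 and 999 CPM and Lcp2 at 192, 208 and 236 CPM. Cd4 was at 183, 146 and 105 CPM, Cd8a at 49.1, 40.9 and 67.8 CPM and Cd8b1 at 150, 118 and 159 CPM.

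Of 14 genes of common gamma chain cytokine signalling, 1 was at least 2-fold higher at D11 and 2 at D14, with 0 lower. Il15ra was at 8.83, 5.58 and 25.2 CPM and the brake Cish at 5.38, 9.76 and 18.4 CPM. Bcl2, the survival gene downstream of Il7r, was at 866, 526 and 487 CPM, and Il4ra at 104, 69.7 and 56.2 CPM. Of 11 activation genes, 1 was at least 2-fold higher at D11 and 2 at D14. Fosb was at 34.5, 82.3 and 80.4 CPM and Zfp36 at 29.3, 53.9 and 59.1 CPM, with Cd69 at 130, 155 and 131 CPM and Tnfaip3 at 217, 169 and 203 CPM.

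Of 6 gamma delta T cell genes, 4 reached the 10 CPM minimum and were tested. All 4 were called higher at D11 and 3 at D14. Tcrg-C1 was at 5.30, 24.2 and 37.8 CPM and Tcrg-C2 at 3.11, 21.8 and 40.7 CPM, 2 constant segments of the gamma chain that share sequence and may share reads. Trdc was at 22.6, 86.9 and 32.9 CPM and Blk at 6.81, 53.9 and 14.5 CPM. Tcrg-C1, Tcrg-C2 and Blk were below 10 CPM in the naive library and passed the minimum only through the leukemic sums. The count of calls therefore follows in part from the minimum. Trdc, above 10 CPM in the naive library, was under 2-fold at D14. Of 8 heat shock genes 3 were higher at each time. Hspa1a was at 0.336, 5.11 and 34.9 CPM and Hspa1b at 1.77, 14.9 and 109 CPM, near-identical copies whose reads could be split, while Hspd1 was not called and Hspe1 was at 174, 132 and 139 CPM.

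The members were then compared over the cell classes of the blood, each taken by its own marker gate and without cells of other gates. The T cells had the highest level of all 10 members in all 3 libraries. At D14 the interval of T cells overlapped that of the NK cells for Satb1 and that of the mature B cells for Il2ra. Of the D14 mature B cells, 56 of 100 held at least 3 pro-B UMIs. Il2ra was at 41.9 CPM in the D14 mature B cells and at 41.6 CPM in the D14 leukemic pro-B cells. NK cells (186, 187 and 56) shared part of the T cell set. In them Satb1 was at 781, 826 and 1043 CPM, Lef1 at 346, 386 and 426 CPM and Ikzf2 at 128, 141 and 73.3 CPM. Tcf7 in the NK cells was at 117, 94.6 and 32.6 CPM, with a D14 log2 ratio to naive of -1.84 from 12 against 173 UMIs, and -1.50 without the cells that held a Cd3 UMI. Lef1 in the NK cells was not below naive at either time. Foxp3 had 0 UMIs in the NK and in the mature B cells of all 3 libraries.

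Leukemic pro-B cells, taken by Dntt, Vpreb1, Vpreb2, Igll1 and Rag1, numbered 2 in the naive, 100 in the D11 and 690 in the D14 library, and only the last 2 libraries were read. Lef1 and the interleukin 7 receptor are known to act also in early B cells. In the leukemic cells Lef1 was at 571 and 460 CPM, Il7r at 230 and 314 CPM, and Satb1 at 1.65 and 6.06 CPM. Il2ra was at 7.57 CPM in 12.0% of the cells at D11 and at 41.6 CPM in 33.0% at D14, a log2 ratio of 2.46 (1.87 to 3.12) from 23 and 921 UMIs. Tcf7 stood at 2.63 and 4.57 CPM and Bcl11b at 11.5 and 16.0 CPM.

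Mature B cells (387, 261 and 100) read Satb1 at 536, 526 and 48.9 CPM, Lef1 at 71.4, 74.1 and 399 CPM and Il7r at 11.0, 26.1 and 354 CPM. Of the 100 cells at D14, 56 held at least 3 pro-B UMIs. Without the cells with any pro-B UMI (386, 251 and 38 left), a limit set after these values were seen, Satb1 was at 536, 565 and 362 CPM, Lef1 at 71.6, 24.1 and 35.2 CPM and Il7r at 11.0, 5.22 and 10.6 CPM. Neutrophils held Satb1 at 223, 176 and 231 CPM and at most 22.8 CPM of each of the other members in any library. Classical monocytes read Ikzf2 at 34.5, 34.7 and 2.21 CPM, and at 9.69, 9.53 and 2.28 CPM without the cells that held a Cd3 UMI. Their Foxp3 was at 4.77, 5.68 and 0 CPM, and at 0, 0.307 and 0 CPM without those cells.

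**Figure D5:**
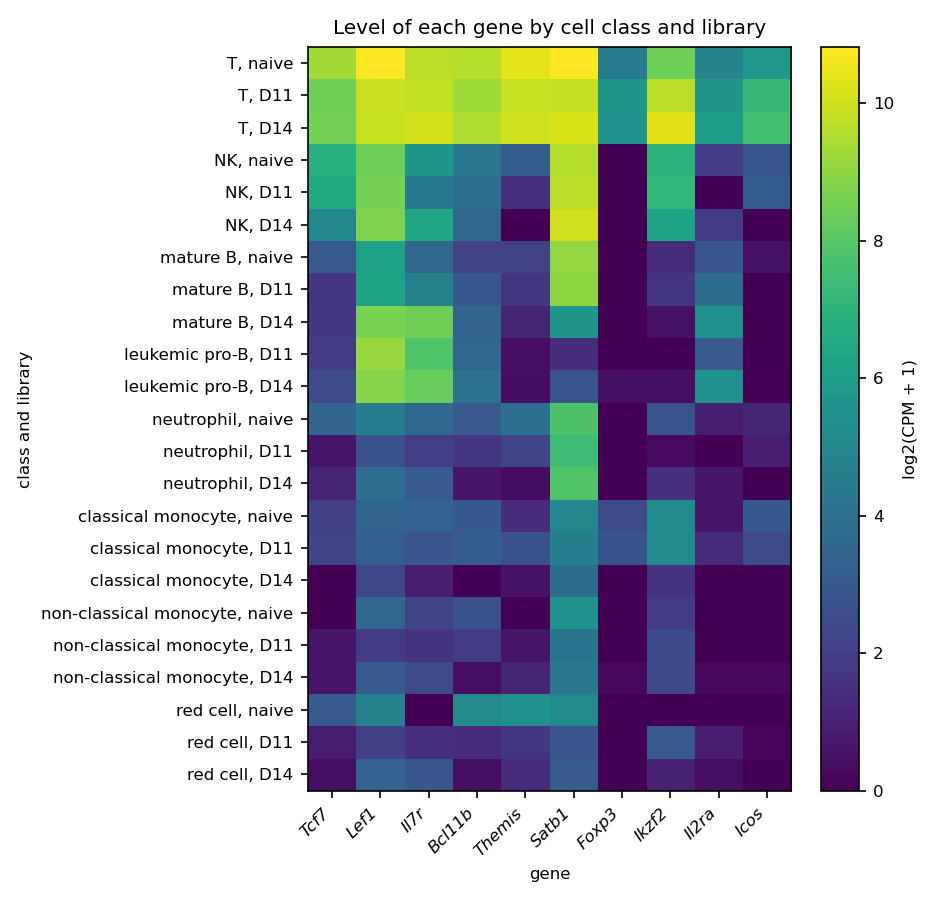
Level of each of the 10 genes (x axis) as log2(CPM + 1) (colour) in each cell class and library with at least 50 cells (y axis); T is the T cells that met no other gate. The level in T cells is the highest of each library for all 10 genes, Satb1 is also high in NK cells (781 to 1043 CPM), and Lef1 in leukemic pro-B cells (571 and 460 CPM).

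Over the 23 class and library sums and 8085 genes, the genes whose log2(CPM + 1) most resembled each member were found by Pearson's r, as a description only, since sums of 1 library share its depth and its preparation. The closest to Tcf7 was Nebl (r = 0.96), to Lef1 Fgf13 (0.96), to Il7r the adaptor Lat (0.97), to Bcl11b Camk4 (0.93), to Themis Cd8b1 (0.97) and to Satb1 Fam102a (0.93). Foxp3 was closest to Cd3e (0.95), Ikzf2 to Cxcr3 (0.93), Il2ra to Izumo1r (0.94) and Icos to Trac (0.96). Genes of the gates, Cd3e and Cd3g among them, were not left out, so their r follows in part from how the classes were taken. The next in order were Gimap4 and Gimap3 for Lef1, Ubash3a and Cdon for Il7r, Gm44174 and Tdrp for Themis, Ube2h and Mpp7 for Satb1, Cd4 and Tnfrsf4 for Foxp3, Trib2 and Kcnmb4 for Il2ra, and 2310016D23Rik and Cd3g for Icos. For Bcl11b they were Lhfpl3 and Axin2 and for Ikzf2 Rora and Nckap1.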

How the data were processed

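PB leukocytes of 3 libraries (naive, D11, D14; 1 per condition) were profiled by 10x Genomics 3′ v3 scRNA-seq. The authors aligned the reads with Cell Ranger and deposited filtered matrices of raw UMI counts without cell names. The matrix header names Cell Ranger 5.0.1, while the submitters' processing notes name 7.1.0 and mm10. Whether intronic reads were counted, which would raise long genes, is not given in the sources used here. Of 32285 identifiers, 32158 are in GENCODE vM21, whose GRCm38 positions are printed.

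Barcodes showing 200 or more genes, with mitochondrial UMIs no more than 10%, were read as cells. T cells and 8 other classes were taken by UMI gates on marker genes, and UMIs were summed per class and library and scaled to CPM. T cells numbered 1252, 277 and 113 with 11892277, 2151919 and 1032052 UMIs. With 1 library per condition no test was possible. Levels have exact Poisson, shares Clopper-Pearson and ratios exact conditional binomial 95% intervals (scipy 1.17.1, numpy 2.4.6, pandas 2.3.3, python 3.11.15), for counting error only. Calls asked for a 2-fold difference with an interval that excludes 0, among genes averaging 10 CPM or more over the 3 sums. Thinned shares are the expected share at 1000 UMIs per cell, with shallower cells left out. Upper limits for 0 cells are 3 counts of the total. The procedure was run on simulated Poisson counts with true log2 changes of size 2. Such counts hold no unevenness between cells and no true change near the 2-fold limit, so they cannot judge the calls there.

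The members, gene lists and gates were chosen with earlier results of these data known, and the lists support nothing. Genes named from a list were those at its ends by D14 ratio, 2 at the top and 2 at the bottom, among genes averaging 10 CPM or more, plus Cd4, Cd8a, Cd8b1, Hspa1a and Hspa1b, and for each member the most similar genes, of which those next in order for Tcf7 are not reported here. The rule was applied within the T cells that met no other gate, after the mixed gate was seen. Doublets were kept, with a Scrublet filter (scanpy 1.11.5) as an alternative. Others were all deposited barcodes, stricter cell filters, 1 or 3 Cd3 UMIs, no limit on F13a1 and Fn1, leaving out cells of other gates, TMM factors (edgeR 4.0.16, R 4.3.3), CPM without ribosomal, mitochondrial and hemoglobin genes, a mean of each cell's CPM, thinning, a 1.5-fold limit and no gene minimum. The gate on Cd3e and Cd3g, the S100a4 split, and classes without Cd3 or pro-B UMIs were chosen after seeing the data. Columns of all 3 libraries were used.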

Additional observations from a re-analysis of the deposited data

Results flagged for a closer look

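Ikzf2 stood out because its D14 ratio to naive had opposite signs in different cell classes. It was 1.88 on the log2 scale in the T cells, -3.96 in the classical monocytes (5 against 65 UMIs) and -1.75 in the neutrophils (6 against 20 UMIs). In the NK cells the ratio was -0.80 (interval -1.44 to -0.22) from 27 against 189 UMIs. With 1 library per condition the difference between classes was not tested. Without the cells that held a Cd3 UMI, the ratio in the classical monocytes was -2.09 (interval -3.88 to -0.59) from 5 against 17 UMIs. In the NK cells it was then -1.16 (-1.89 to -0.51) from 21 against 166 UMIs. Of the neutrophils, 198 of 944 naive and 179 of 760 D14 cells held a Cd3 UMI, and a ratio without them is not given here.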

How the results depend on the processing

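No paired analysis was possible because each condition has 1 library, and for the same reason no replicate could be left out. The Cd3-gated share of the naive, D11 and D14 libraries was 26.4%, 7.1% and 4.01% over all deposited barcodes, 38.3%, 18.1% and 11.1% under limits of 500 genes and 5% mitochondrial UMIs, 33.7%, 9.55% and 5.53% with at least 3 Cd3 UMIs, 46.2%, 21.0% and 13.6% with at least 1, 32.9%, 6.07% and 2.56% without cells of other gates, and 33.1%, 6.07% and 2.58% with at least 2 UMIs of Cd3e and Cd3g. The share with a Foxp3 UMI at D11 and D14 was 5.32% and 3.32% with at least 1 Cd3 UMI, 16.2% and 15.9% without cells of other gates, 17.7% and 17.5% with Cd3e and Cd3g, and 1.64%, 2.19% and 1.40% in the 3 libraries after thinning of all gated cells. Members at least 2-fold changed at D11 went from 5, all lower, to 3, all higher, without cells of other gates, and 7 at each time passed 1.5-fold in the T cells. The share of all genes past 1.5-fold in the T cells is not given here, so these 7 have no background. All genes at least 2-fold changed numbered 1818 and 2862 in the gated cells, 476 and 699 without cells of other gates, and 462 and 701 with Cd3e and Cd3g. All genes changed in the gated cells numbered 3916 and 4887 at 1.5-fold, and 3753 and 5144 with no gene minimum. The 1.5-fold counts of the gated cells are not a background for the T cells. The D14 ratio of Il7r was reversed, to 0.40 without cells of other gates and 0.41 with Cd3e and Cd3g. Of 220 log2 ratios under the alternatives in the gated cells, 126 moved outside their counting interval and a further 2 were reversed. The sign was opposite in 19 of the 220. Among these at D14 were Foxp3 and Il2ra without cells of other gates, at 1.11 and 1.20. With at least 1 Cd3 UMI, Ikzf2 and Icos at D14 were at -0.14 and -0.23. Of 180 in the T cells, 0 had the opposite sign and 25 moved outside their counting interval. The alternatives were not the same in both, since the T cells had already been taken without cells of other gates. TMM factors shifted all log2 ratios by 0.23 and 0.31 in the gated cells and by -0.10 and -0.17 in the T cells. Depth limits Foxp3 and Il2ra at D14 most, at 46 and 65 UMIs in the T cells.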
